A study of Homo sapiens with 18 samples.

Results

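JAG1 mRNA can be lowered for days with siRNA or for good with Cas9, and the cultures compared here differ in that way. The comparison sets the 3 siJag1 libraries against the 3 Jag1KO libraries, 6 of the 18 libraries of the series, and it was applied to genes above 1 CPM (read counts scaled to library size, with TMM factors, by the authors) in at least 3 of the 6. A total of 12896 genes passed. All cells were MDA-MB-231, an established triple-negative breast cancer line, and RNA was taken after 7 days of growth as spheroids in 3D Matrigel. The siJag1 cells are the parental line (Jag1WT) transfected with siRNAs against JAG1 some hours before seeding, with a nontargeting siRNA in siCtrl. The Jag1KO cells descend from Jag1WT cells in which a guide RNA and Cas9 cut exon 2 of JAG1, and they are a mixture of single-cell clones in equal parts. Jag1KO cells later given a plasmid with JAG1 cDNA (Jag1KO + rescue) or an empty plasmid (Jag1KO + ctrl), both kept under G418, are shown where they bear on a gene. Each condition had 3 biological replicates. The siJag1 and Jag1KO cultures also differ in transfection, in cloning and in time since JAG1 was lost, and these cannot be told apart in the direct comparison.

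Jagged1, the product of JAG1, is a membrane ligand of the Notch receptors. A bound receptor is cut by ADAM proteases and by the gamma-secretase complex, and its freed intracellular part joins RBPJ on DNA and switches on targets such as the HES and HEY repressors. In breast cancer cells Jagged1 is known for its part in stem cell features, invasion and the matrix around the tumor.

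Between 10330581 and 17919453 reads per library were counted on genes in the 6 libraries. The line markers VIM, CD44, EGFR and AXL were present in all 6, with a summed level of 4970 to 5540 CPM in siJag1 and 4380 to 6120 CPM in Jag1KO. Of 7 markers taken as absent or low in this line (ESR1, PGR, ERBB2, CDH1, EPCAM, GATA3 and FOXA1), 3 passed 1 CPM on average. The 7 together were at 50.3 to 66.5 CPM in siJag1 and 53.7 to 62.3 CPM in Jag1KO. Of 16 markers of fibroblasts, endothelial cells, leukocytes and other cell types, 2 passed 1 CPM on average, the macrophage and lysosome gene CD68 and the endothelial gene PECAM1, and the summed level of all 16 overlapped between the groups (129 to 167 CPM in siJag1 and 92.2 to 172 CPM in Jag1KO). Libraries of each group stood apart in growth state. The mean log2(CPM + 1) of 97 S and G2/M phase genes was 4.11, 5.55 and 5.67 in the Jag1KO replicates 1 to 3, and 4.32, 6.07 and 4.41 in the siJag1 replicates. Jag1KO replicate 1 and siJag1 replicate 2 are therefore unlike the other libraries of their group, in opposite directions, and counts of genes are given with and without them. Replicates 1 to 3 were at 4.14, 4.91 and 4.10 in Jag1WT and at 4.18, 5.10 and 4.48 in siCtrl. Replicate 2 was thus the highest in these controls as in siJag1, while in Jag1KO replicate 3 was.

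**Figure D1:**
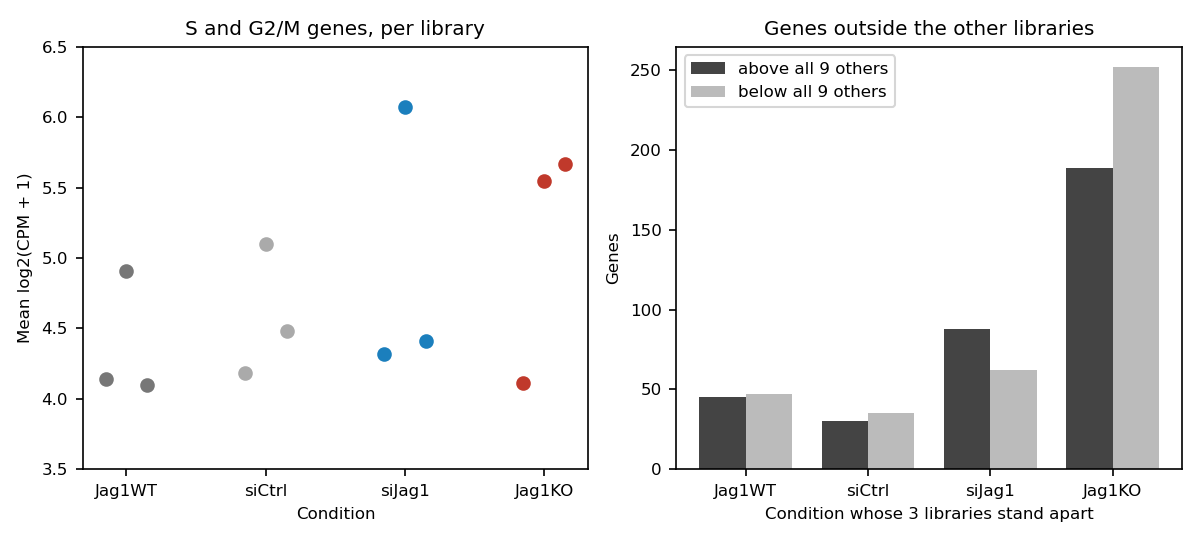
Left, mean log2(CPM + 1) of the S and G2/M genes in each library of 4 conditions (1 point per library, replicates 1 to 3 from left); 2 Jag1KO libraries and 1 siJag1 library lie above 5.5. Right, number of the 12896 genes for which all 3 libraries of a condition lie above (dark) or below (light) all 9 libraries of the other conditions; Jag1KO has the tallest bars, 189 and 252, and siJag1 has 88 and 62.

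JAG1 mRNA was low in both groups and did not separate them. JAG1 (chr20:10637684-10673999, minus strand, GRCh38.p14) was at 116, 205 and 149 CPM in Jag1KO and at 166, 203 and 131 CPM in siJag1, against 433 to 585 CPM in Jag1WT and 441 to 626 CPM in siCtrl. The siJag1 and Jag1KO libraries overlapped, and all of them lay below every control library. The mean of siJag1 was 31.3% of siCtrl and that of Jag1KO 30.5% of Jag1WT. The log2 fold change of siJag1 over Jag1KO was 0.08 (SE 0.238, 95% interval −0.48 to 0.63), with an adjusted p of 1 in edgeR's quasi-likelihood test, so the interval leaves room for a modest difference in either direction. Counts over the whole gene include transcripts that carry a cut at exon 2 and do not measure the protein, and in bulk RNA fewer cells with the transcript and less transcript per cell cannot be told apart.

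HES1, the best known Notch target, was below every control library in both groups. It stood at 3.72, 0.927 and 1.05 CPM in Jag1KO and at 5.50, 3.30 and 4.48 CPM in siJag1, while siCtrl had 12.7, 13.2 and 13.9 CPM and Jag1WT 13.4, 11.2 and 22.3 CPM. Jag1KO replicate 1 reached into the siJag1 range, and the 2 other Jag1KO libraries lay below it. The mean of siJag1 was 33.3% of siCtrl and that of Jag1KO 12.1% of Jag1WT. The log2 fold change of siJag1 over Jag1KO was 1.16 (SE 0.529, interval −0.08 to 2.39, unadjusted p = 0.0621 in the fit across all genes, adjusted p = 1). Without Jag1KO replicate 1 and siJag1 replicate 2 it was 2.31 (edgeR adjusted p = 0.000868), but that fit drops the Jag1KO library that overlaps siJag1, sets Jag1KO libraries with high S and G2/M levels against siJag1 libraries with low ones, and called 10.5% of all genes tested. Each against its own control, HES1 differed by −2.99 in Jag1KO (edgeR adjusted p = 0.00496) and by −1.59 in siJag1 (adjusted p = 0.663) on the log2 scale. The promoter of HES1 is printed because it is the regulatory sequence through which Notch is known to act on this gene. The run is the 250 bases before its RefSeq start, chr3:194135898-194136147, plus strand, GRCh38.p14, with the 6-base motif TGGGAA, the core of the RBPJ site, in capitals.
HES1: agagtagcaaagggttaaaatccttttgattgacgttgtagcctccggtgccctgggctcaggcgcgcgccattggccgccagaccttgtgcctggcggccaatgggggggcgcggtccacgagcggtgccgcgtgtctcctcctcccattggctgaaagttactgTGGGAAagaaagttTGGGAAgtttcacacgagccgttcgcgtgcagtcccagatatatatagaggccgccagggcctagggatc
It holds 2 matches on the coding strand, beginning 84 and 70 bases before the start. Searched on both strands, 20.8% of the 35116 RefSeq promoter windows hold at least 1 match and 2.9% hold 2 or more.

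Other Notch genes did not separate the groups at the threshold. Of 29 ligands, receptors and processing genes, 24 were tested and 0 were called, beside 0.0698% of all genes tested, and their median log2 fold change was 0.06 against −0.003 for all genes. At an unadjusted p under 0.05 the edgeR test had 4 of the 24, and 4.74% of all genes passed that level. NOTCH2, a receptor, was at 415, 415 and 401 CPM in Jag1KO and at 427, 379 and 429 CPM in siJag1. The second Jagged ligand, JAG2, was low, at 1.76, 1.39 and 1.91 CPM in Jag1KO and at 0.964, 0.541 and 1.19 CPM in siJag1. JAG2 in siJag1 lay below the 9 libraries of Jag1KO, Jag1WT and siCtrl, and its difference from Jag1KO had an adjusted p of 0.994. Among 14 target genes, 6 were tested and 0 were called, with a median of −0.29. HEY1 was at 6.31 to 8.35 CPM in Jag1KO and at 4.00 to 7.43 CPM in siJag1, and HES4 at 1.34 to 2.09 and 0.433 to 1.47 CPM, both overlapping.

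The genes that did separate the groups were mostly higher in Jag1KO. The edgeR test on the 6 libraries called 8 genes lower and 1 gene higher in siJag1 at an adjusted p under 0.05 and a fold change above 1.5, together 0.0698% of the 12896 tested, while 611 genes had an unadjusted p under 0.05. IGFN1, an immunoglobulin and fibronectin domain protein known from muscle (chr1:201190824-201228952), was at 82.6, 67.7 and 63.0 CPM in Jag1KO and at 8.96, 4.65 and 8.74 CPM in siJag1. The siJag1 values lay in the range of the controls, 7.07 to 9.26 CPM in Jag1WT and 5.45 to 7.89 CPM in siCtrl, apart from 1 library below it. The log2 fold change of IGFN1 was −3.28 (SE 0.268, edgeR adjusted p = 0.0136).

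The other 7 genes lower in siJag1 also had a siJag1 mean nearer to the controls than the Jag1KO mean was. CSMD1, a membrane protein with CUB and sushi domains that restrains complement, was at 8.35, 11.1 and 10.3 CPM in Jag1KO and at 0.680, 1.03 and 0.979 CPM in siJag1 (log2 fold change −3.48, SE 0.267, edgeR adjusted p = 0.0136). EML1, a microtubule-binding protein (chr14:99737722-99942060), was at 7.63, 6.80 and 7.26 CPM in Jag1KO and at 1.53, 0.919 and 1.19 CPM in siJag1 (−2.59, SE 0.259). KCNN3, a calcium-activated potassium channel (chr1:154697455-154870281), was at 30.9, 37.0 and 31.8 CPM in Jag1KO and at 4.59, 9.14 and 6.29 CPM in siJag1 (−2.33, SE 0.265). In each of the 3 genes every Jag1KO library lay above every siJag1, siCtrl and Jag1WT library. AZGP1, a secreted zinc-binding glycoprotein that promotes lipid breakdown (chr7:99966730-99976031), was at 24.5, 24.7 and 22.0 CPM in Jag1KO and at 5.39, 4.76 and 6.22 CPM in siJag1 (−2.14, SE 0.173). ANKRD36C, an ankyrin repeat gene with near-identical relatives among which uniquely mapped reads may be split (chr2:95848932-95991824), was at 64.7, 59.8 and 67.3 CPM in Jag1KO and at 19.6, 22.0 and 26.6 CPM in siJag1 (−1.51, SE 0.153). The remaining called genes, MAGEC1, MAGEC2 and MAGEB2, belong to the cancer-testis antigens described next.

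Leaving out any 1 library changed these calls. Each of the 5 fits without a Jag1KO library or without siJag1 replicate 1 or 3 called 0 genes, with 277 to 1109 genes at an unadjusted p under 0.05, and the fit without siJag1 replicate 2 called 4 genes lower. All 9 genes kept their direction wherever they were tested. Without Jag1KO replicate 1 and siJag1 replicate 2 together, 352 genes were called higher and 969 lower in siJag1, 10.5% of the 12598 tested, and all 7 of the 9 that were still tested were among them. That fit sets 2 Jag1KO libraries with high S and G2/M levels against 2 siJag1 libraries with low ones, and its calls include the cell cycle genes HMGB2 (−1.62), USP1 (−0.99), GAS2L3 (−1.16) and NASP (−0.61). The part of growth state in those calls was not tested. With the S and G2/M mean of each library as a covariate, 32 genes were called higher and 85 lower, 0.907% of those tested, again with all 9 among them.

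**Figure D2:**
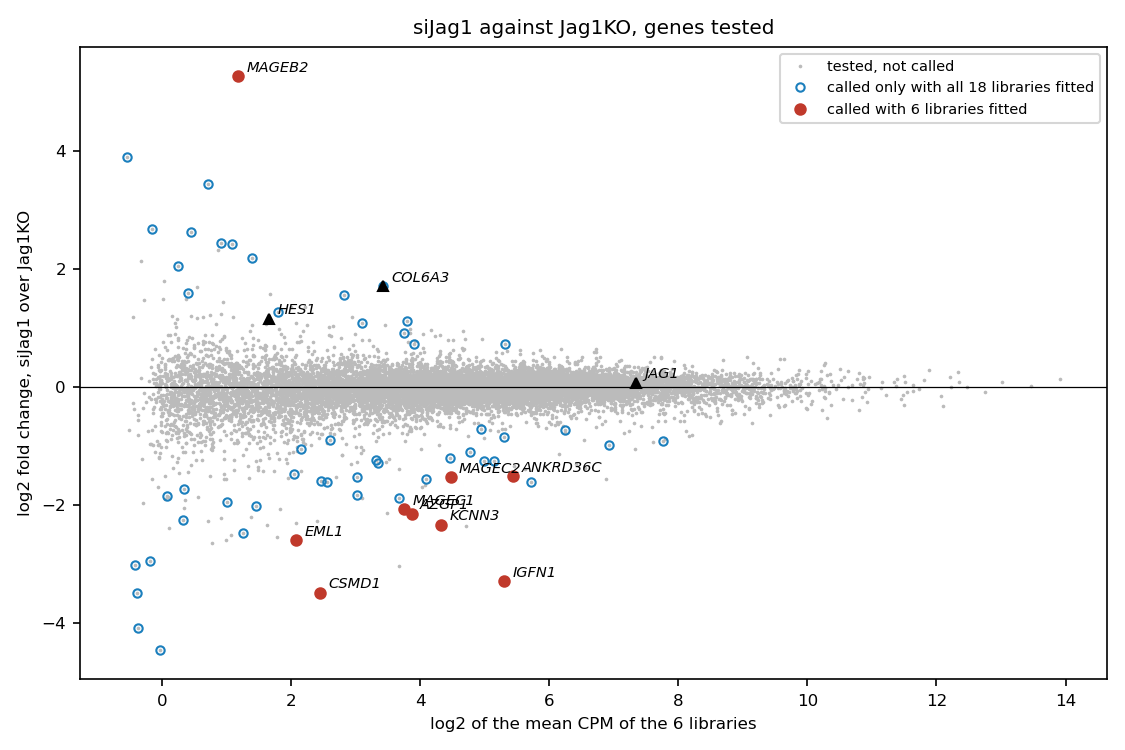
Each point is 1 of the 12896 genes, with the log2 of its mean CPM over the 6 libraries on the x axis and its log2 fold change, siJag1 over Jag1KO, on the y axis. Filled red points are the 9 genes called with the 6 libraries, open blue circles those called only with 18 libraries in the fit, and triangles mark JAG1 near 0, HES1 at 1.16 and COL6A3 at 1.71.

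Estimating the spread of each gene from all 18 libraries gave more calls for the same contrast. Of 13377 genes tested, 19 were called higher in siJag1 (0.142%) and 40 lower (0.299%), in all 59 or 0.441%. They include 8 of the 9 genes above, ANKRD36C being the exception with an adjusted p of 0.0657. Of the 57 that were also tested on 6 libraries, 56 had a siJag1 mean nearer to the mean of the 6 control libraries than the Jag1KO mean was, on the log2(CPM + 1) scale, against 55.4% of all 12896 genes. RHPN1, a rhophilin, was the exception, at 2.83 to 2.97 CPM in siJag1, 4.59 to 6.98 in Jag1KO and 4.17 to 5.52 in the controls.

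Further genes called in the fit over 18 libraries, chosen here after their values were seen, had the values that follow. HDAC11, a histone deacetylase, was at 1.57, 2.63 and 1.43 CPM in Jag1KO and at 0.113, 0.108 and 0 CPM in siJag1. CSPG4, the proteoglycan NG2, was at 13.8, 14.2 and 14.8 CPM in Jag1KO and at 6.07, 3.84 and 8.04 CPM in siJag1 (log2 fold change −1.28, edgeR adjusted p = 0.0446). SAA1, an acute-phase protein, was at 120, 183 and 181 CPM in Jag1KO and at 79, 93.9 and 75.5 CPM in siJag1 (−0.98, adjusted p = 0.013). In CSPG4 and SAA1 each Jag1KO library lay above each siJag1 library, as in HDAC11, where the filter on 6 libraries required it. MYO5B, a myosin that carries recycling vesicles, was at 5.61, 9.58 and 9.55 CPM in Jag1KO and at 1.93, 3.84 and 2.45 CPM in siJag1. In the other direction, LSR, a lipoprotein receptor of tricellular junctions, was at 0.196, 0.309 and 0.191 CPM in Jag1KO and at 1.13, 2.11 and 1.40 CPM in siJag1 (2.69, adjusted p = 0.0027). HCLS1, an actin regulator of blood cells, was at 4.70, 6.49 and 5.06 CPM in Jag1KO and at 9.92, 12.4 and 12.5 CPM in siJag1 (1.09, adjusted p = 0.0195). The siJag1 libraries of LSR and HCLS1 overlapped with the controls, which had 1.26 to 2.48 and 10.3 to 14.2 CPM. None of these 6 genes was called on 6 libraries.

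Cancer-testis antigens are proteins whose genes, many of them on chromosome X, are read in germ cells, silenced in most other tissues and read again in many tumors. Of 63 such genes, 20 were tested on the 6 libraries, 1 was called higher and 2 lower in siJag1, and 15 had groups that did not overlap, against 10.2% of all genes tested. The 15 include MAGEB2, CSAG1, MAGEA12, MAGEA2B and CSAG3, which were below 1 CPM in every Jag1KO library. For these genes the filter fixed the lack of overlap in advance. In the fit over 18 libraries 14 of the 20 were called, 6 higher and 8 lower in siJag1, beside 0.441% of all genes. The lower ones include SPANXA1, SPANXA2, SPANXC and SPANXD, related copies that are counted here as separate genes. The list was written with earlier results of these data known, so this count is a description. The median log2 fold change over the 20 was −0.04, since members moved in both directions.

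MAGEC1 and MAGEC2 lie close to each other on chromosome X and were both higher in Jag1KO. MAGEC1 (chrX:141903894-141909374) was at 20.3, 19.8 and 24.7 CPM in Jag1KO and at 4.65, 4.6 and 6.5 CPM in siJag1, with 4.23 to 5.35 CPM in Jag1WT and 5.02 to 5.48 CPM in siCtrl. Its log2 fold change was −2.06 (SE 0.211, edgeR adjusted p = 0.0338). MAGEC2 (chrX:142202342-142205290) was at 30.9, 34.1 and 33.1 CPM in Jag1KO and at 12.8, 9.19 and 12.8 CPM in siJag1, with a log2 fold change of −1.52 (SE 0.172, edgeR adjusted p = 0.0471). Both genes were higher still in the cultures derived from Jag1KO, MAGEC1 at 43.1 to 56.9 CPM in Jag1KO + ctrl and 73.5 to 93.4 CPM in Jag1KO + rescue, MAGEC2 at 41.0 to 66.5 and 85.8 to 99.1 CPM. JAG1 itself was at 534 to 657 CPM in Jag1KO + rescue, within or above the range of the controls.

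The SPANX genes, which code for proteins of the sperm nucleus, and PAGE5 were higher in Jag1KO as well. SPANXB1 was at 256, 287 and 307 CPM in Jag1KO and at 169, 122 and 165 CPM in siJag1, and PAGE5 at 12.1, 11.7 and 14.0 against 4.54, 3.35 and 2.80 CPM. SPANXA1, SPANXA2, SPANXC and SPANXD fell in siJag1 relative to Jag1KO by 1.52, 1.56, 1.20 and 2.02 on the log2 scale in the fit over 18 libraries. These related copies may not be separate measurements. The 250 bases before the starts of SPANXA1 and SPANXA2 agree in 250 of 250 positions, but the transcripts of the copies were not compared. Only uniquely mapped reads were counted, so reads shared between copies would be left out.

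The cancer-testis genes higher in siJag1 were below 1 CPM in every Jag1KO library, XAGE2 excepted. MAGEB2 (chrX:30215563-30220089) had 0, 2 and 2 reads in the Jag1KO libraries, or at most 0.191 CPM, and stood at 3.46, 5.46 and 4.27 CPM in siJag1, 2.61 to 3.83 CPM in Jag1WT and 2.62 to 4.79 CPM in siCtrl. The ratio of siJag1 to Jag1KO from summed reads was 42.8 (223 against 4 reads, 95% exact counting interval 16.5 to 159), and the edgeR adjusted p was 0.0471. CSAG1 had 3 reads in all in Jag1KO against 64 in siJag1, a ratio of 16.4 (interval 5.36 to 81.6). Both intervals count reads and leave out the spread between cultures. On 6 libraries the edgeR adjusted p of CSAG1 was 0.0609. MAGEA12, which faces CSAG1 on the opposite strand, was at 0.457, 0.850 and 0.669 CPM in Jag1KO and at 3.23, 3.73 and 3.71 CPM in siJag1. XAGE2 was at 4.18, 3.32 and 3.06 CPM in Jag1KO and at 10.7, 10.2 and 10.6 CPM in siJag1. The edgeR adjusted p of MAGEA12 and of XAGE2 was 0.0656 on 6 libraries. CSAG1, MAGEA12 and XAGE2 were thus called only in the fit over 18 libraries. In XAGE2 every siJag1 library lay above every Jag1KO library. In MAGEB2, CSAG1 and MAGEA12 the filter fixed that order in advance, since every Jag1KO library was below 1 CPM. In all 4 genes the Jag1KO + ctrl and Jag1KO + rescue libraries were as low as Jag1KO or close to it, up to 2.54 CPM in XAGE2 and 0.818 CPM in MAGEA12.

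**Figure D3:**
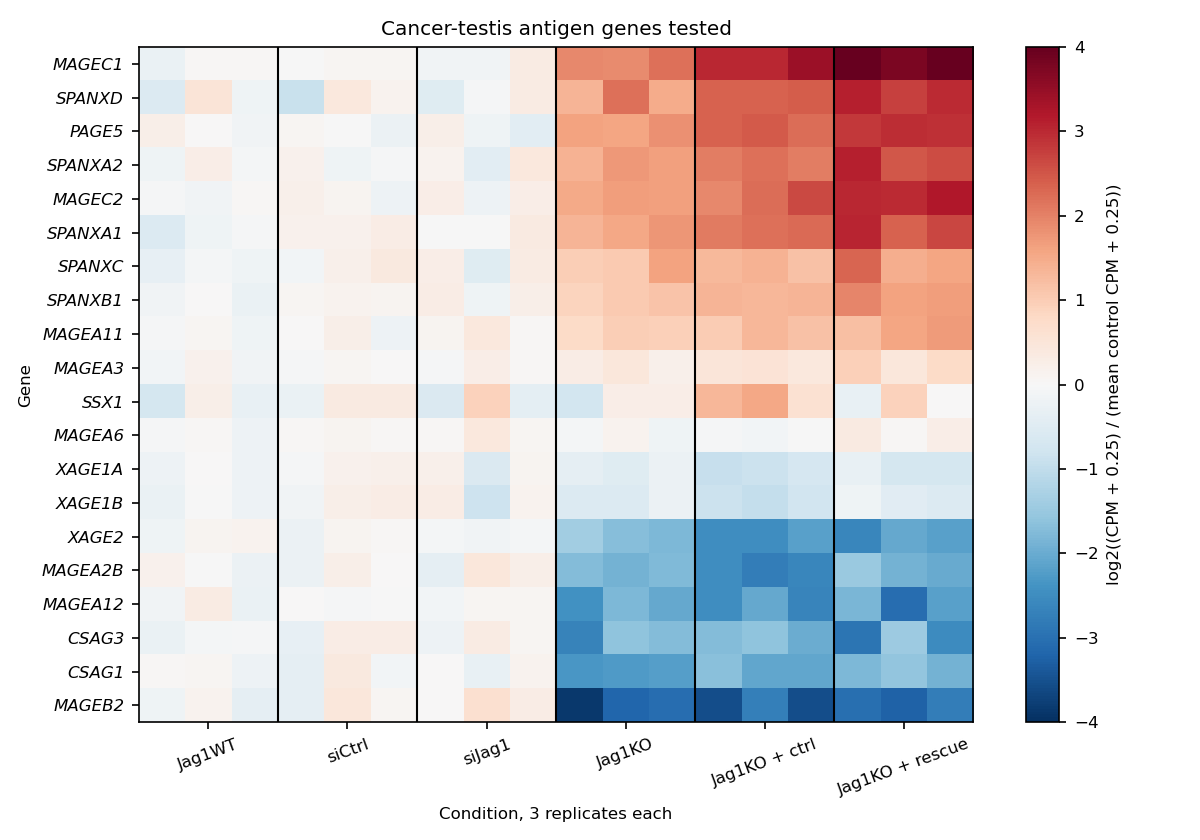
The 20 cancer-testis antigen genes tested (rows, ordered by log2 fold change of siJag1 over Jag1KO) in 18 libraries (columns, 3 per condition). The color is log2((CPM + 0.25) / (mean CPM of Jag1WT and siCtrl + 0.25)), red for higher and blue for lower. The siJag1 columns are close to the control color, while 9 rows from MAGEC1 to MAGEA11 are red and 6 rows from XAGE2 to MAGEB2 are blue in all 9 libraries of Jag1KO origin.

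Promoters of 2 genes higher and 2 genes lower in Jag1KO are shown because members of 1 gene class moved in opposite directions, and because CpG methylation is known to silence this class. Each run is the 250 bases before the RefSeq start in GRCh38.p14, written from 5′ to 3′ on the coding strand, with each CpG in capitals. MAGEC1 covers chrX:141903644-141903893 on the plus strand, MAGEC2 chrX:142205291-142205540 on the minus strand, MAGEB2 chrX:30215313-30215562 on the plus strand and CSAG1 chrX:152733722-152733971 on the minus strand.
MAGEC1: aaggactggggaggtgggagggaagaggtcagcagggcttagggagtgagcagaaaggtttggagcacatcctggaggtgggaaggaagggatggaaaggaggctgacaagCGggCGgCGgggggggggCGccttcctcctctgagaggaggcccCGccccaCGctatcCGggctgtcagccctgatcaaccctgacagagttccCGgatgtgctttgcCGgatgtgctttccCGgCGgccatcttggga
MAGEC2: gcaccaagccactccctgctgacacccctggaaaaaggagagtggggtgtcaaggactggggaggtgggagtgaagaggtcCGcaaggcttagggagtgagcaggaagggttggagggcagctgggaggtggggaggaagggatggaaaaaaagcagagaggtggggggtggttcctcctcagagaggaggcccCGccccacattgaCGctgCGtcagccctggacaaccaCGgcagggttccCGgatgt
MAGEB2: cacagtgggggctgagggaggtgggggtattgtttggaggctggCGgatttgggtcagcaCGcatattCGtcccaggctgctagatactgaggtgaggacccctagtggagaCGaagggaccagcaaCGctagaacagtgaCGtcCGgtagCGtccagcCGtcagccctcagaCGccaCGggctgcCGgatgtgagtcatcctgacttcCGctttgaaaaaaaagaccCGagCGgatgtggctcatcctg
CSAG1: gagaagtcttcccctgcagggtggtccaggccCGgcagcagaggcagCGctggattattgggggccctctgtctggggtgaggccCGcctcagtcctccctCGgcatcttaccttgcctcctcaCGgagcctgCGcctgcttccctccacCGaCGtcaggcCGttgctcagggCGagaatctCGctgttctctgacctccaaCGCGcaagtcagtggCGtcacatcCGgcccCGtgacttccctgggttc
MAGEC1 holds 11 CpG and MAGEC2 holds 6, while MAGEB2 holds 15 and CSAG1 16, and the median over all 35116 windows is 11. With other members scored, the 2 directions overlapped. SPANXC and SPANXD, also higher in Jag1KO, were not scored. Those lower in Jag1KO held 10 (XAGE2), 11 (MAGEA2B), 17 (CSAG3) and 5 or 13 (MAGEA12, depending on the start). Those higher in Jag1KO held 6 (SPANXA1 and SPANXA2), 8 (SPANXB1) and 9 (PAGE5). The CSAG1 window shares bases with the MAGEA12 windows, so their counts are not separate. At least 6 CpG are found in 61.9% of all windows, at least 15 in 42.9% and at least 16 in 41%. Methylation was not measured here.

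Chromosome X held a larger share of calls than its share of genes. In the fit over 18 libraries 21 of the 59 called genes were on X, 10 higher and 11 lower in siJag1, or 4.38% of its 479 tested genes against 0.441% of all genes, while X held 3.6% of the genes tested. The cancer-testis list accounts for 14 of the 21, with the related SPANX copies counted as separate genes. The other 7 were IL13RA2, LDOC1, NAP1L2, FAM133A, GSPT2, RTL5 and CHMP1B2P, 1.53% of 459 tested X genes outside the list. IL13RA2, a decoy receptor for interleukin-13, was at 90.2, 73.3 and 71.4 CPM in Jag1KO and at 27.7, 19.6 and 31.3 CPM in siJag1. LDOC1, a retrotransposon-derived regulator of transcription, was lower in Jag1KO, at 1.96, 1.78 and 2.29 CPM against 5.22, 5.08 and 4.41 CPM. The groups did not overlap in either gene, and on 6 libraries their edgeR adjusted p was 0.0609 and 0.200. The median log2 fold change of all 463 X genes tested on 6 libraries was 0.054.

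Among the collagen VI chains, COL6A3 was lower in Jag1KO than in siJag1, COL6A2 was near the floor, and COL6A1 overlapped between the groups. COL6A3, a chain of the microfibrillar collagen VI (chr2:237324018-237414164), was at 5.22, 4.79 and 4.87 CPM in Jag1KO and at 22.4, 15.1 and 11.9 CPM in siJag1, against 63.1 to 83.9 CPM in Jag1WT and 73.8 to 88.0 CPM in siCtrl. The 3 levels did not overlap, so that siJag1 kept 20.4% of its control mean and Jag1KO 6.76%. The log2 fold change of siJag1 over Jag1KO was 1.71 (SE 0.260, interval 1.10 to 2.31). On 6 libraries the edgeR adjusted p was 0.111, and with 18 libraries in the fit it was 0.00606. Its partner COL6A2 had 0 reads in all 3 Jag1KO libraries and a mean of 0.597 CPM in siJag1, at least 2.51-fold above the level that 3 reads per Jag1KO library would give, and it was below the filter on 6 libraries. The third chain, COL6A1, did not follow, with 42.1, 27.9 and 31.3 CPM in Jag1KO and 30.3, 23.7 and 29.2 CPM in siJag1.

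COL18A1, the basement membrane collagen from which endostatin is cut, lay in the same order. It was at 13.9, 12.3 and 15.5 CPM in Jag1KO, 22.4 to 29.5 CPM in siJag1 and 40.6 to 68.7 CPM in the 6 control libraries, with a log2 fold change of 0.88 (SE 0.175, edgeR adjusted p = 0.265). COL7A1, the anchoring fibril collagen, ran the other way, at 101, 130 and 130 CPM in Jag1KO and 55.8, 79.4 and 61.5 CPM in siJag1 (−0.89, edgeR adjusted p = 0.260). Over the 18 collagen chains tested 0 were called on 6 libraries and 9 had a positive change, with a median of −0.05, and 2 of 24 were called in the fit over 18 libraries, COL6A2 and COL6A3, beside 0.441% of all genes. COL6A2 entered that fit through the control libraries, where it is higher.

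**Figure D4:**
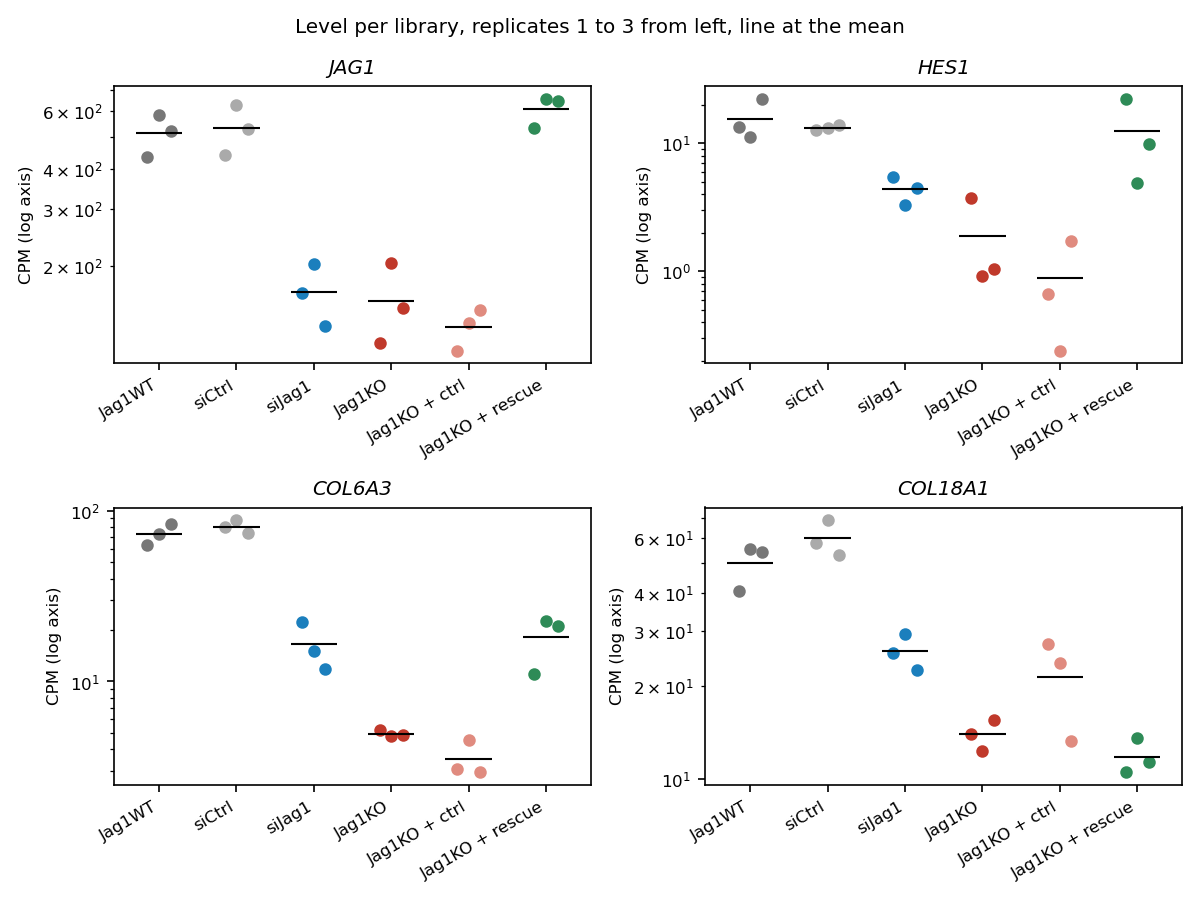
CPM of JAG1, HES1, COL6A3 and COL18A1 in every library (points, replicates 1 to 3 from left, line at the mean, log axis) of 6 conditions. JAG1 overlaps between siJag1 and Jag1KO, COL6A3 and COL18A1 lie in siJag1 between the controls and Jag1KO, and in Jag1KO + rescue JAG1 is back at 534 to 657 CPM while COL6A3 reaches 11.0 to 22.5 CPM.

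Of the matrix enzymes and inhibitors, 1 of 36 was called in the fit over 18 libraries, beside 0.441% of all genes. This was ADAMTS1, lower in siJag1. ADAMTS1, a secreted protease that cuts the proteoglycan versican, was at 51.1, 41.7 and 41.1 CPM in Jag1KO and at 15.1, 19.7 and 22.2 CPM in siJag1, with 7.22 to 15.8 CPM in the controls (log2 fold change −1.25, SE 0.185). Its edgeR adjusted p was 0.104 on 6 libraries and 0.0163 with 18 in the fit. ADAMTS9 was at 63.4, 108 and 120 CPM in Jag1KO and at 43.9, 39.4 and 50.5 CPM in siJag1 (log2 fold change −1.14, edgeR adjusted p = 0.332). PLAT, the tissue plasminogen activator, was at 183, 369 and 306 CPM in Jag1KO and at 150, 175 and 149 CPM in siJag1 (−0.87, adjusted p = 0.682), and neither gene was called in either fit. On 6 libraries 0 of 35 matrix enzymes and inhibitors were called by the edgeR test, 15 had a positive change, and the median was −0.06. An unadjusted p under 0.05 was found for 9 of the 35, beside 4.74% of all genes tested. FST, follistatin, which binds activins, was at 41.2, 62.1 and 45.4 CPM in Jag1KO, 18.8, 19.4 and 25 CPM in siJag1 and 10.7 to 15.1 CPM in the controls. It was the only called gene of the TGF-beta, activin and BMP list, in the fit over 18 libraries (1 of 34, beside 0.441% of all genes, edgeR adjusted p = 0.0412), while 0 of 32 were called on 6 libraries and the median was 0.05. The list of laminins and basement membrane genes had 0 of 11 called (median −0.09), the integrins 0 of 16 (0.14) and the matricellular and microfibril proteins 0 of 23 (−0.20), the last with LTBP4 (−0.60), LTBP3 (−0.58) and FBLN1 (−1.21) among its smallest p.

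A graded order, with siJag1 between Jag1KO and all 6 control libraries and no overlap, was found for 45 of the 12896 genes. In 36 of them Jag1KO was lowest, among them COL6A3, COL18A1, PTGES (prostaglandin E synthase), ITGA5 (a chain of the fibronectin receptor), ABCA1 (a cholesterol exporter), NTN4 (netrin-4), ADAM19 and F2R (the thrombin receptor). PTGES, for example, was at 18, 9.35 and 8.22 CPM in Jag1KO, 30.8, 19.3 and 21.2 CPM in siJag1 and 36.3 to 63.9 CPM in the controls. In 9 genes Jag1KO was highest, among them FST, KCNAB2 (a potassium channel subunit), NR3C2 (the mineralocorticoid receptor), ROBO2 (a receptor of the SLIT guidance cues) and ADGRF1. NR3C2 was at 80.8, 110 and 90.1 CPM in Jag1KO, 61.3, 51.0 and 58.6 CPM in siJag1 and 38 to 47.9 CPM in the controls. The reverse order, siJag1 beyond Jag1KO on the same side of the controls, was found for 3 genes. LTBP3, which binds latent TGF-beta in the matrix, was at 13.4, 11.6 and 11.8 CPM in siJag1, 14.7 to 21.0 CPM in Jag1KO and 27.7 to 45.6 CPM in the controls, and RNFT1 and TEX261 were the 2 highest in siJag1. Genes were put in these classes by their values, so no test is given for them, and of the 45 graded genes COL6A3, FST, KCNAB2, LHFPL4, NR3C2 and ROBO2 were called in the direct contrast over 18 libraries.

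Genes that set 1 condition apart from the other 9 libraries were more frequent in Jag1KO. All 3 Jag1KO libraries lay above the other 9 (siJag1, siCtrl and Jag1WT) in 189 genes and below them in 252, or 3.42% of the genes, while siJag1 did so in 88 and 62 (1.16%), Jag1WT in 45 and 47 (0.713%) and siCtrl in 30 and 35 (0.504%). Genes with low replicate spread enter such counts most easily, and the conditions were not tested against each other. Among the genes where siJag1 stood alone was NQO1, a quinone reductase that detoxifies and answers oxidative stress, at 131, 122 and 138 CPM in siJag1, 78.5 to 88.9 CPM in Jag1KO and 67.2 to 121 CPM in the controls. Its log2 fold change over Jag1KO was 0.64 (SE 0.108, edgeR adjusted p = 0.141). TIMP2, an inhibitor of matrix metalloproteinases, was at 337, 340 and 326 CPM in siJag1, 232 to 290 CPM in Jag1KO and 287 to 319 CPM in the controls (0.36, adjusted p = 0.933). HKDC1, a hexokinase-like enzyme, was lower in siJag1 than in all others, at 12, 7.25 and 12.4 CPM against 14.6 to 28.7 CPM in Jag1KO (−1.05, adjusted p = 0.721).

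Each loss of JAG1 was then set against its own control, since siJag1 cells had been transfected with siRNA before seeding and Jag1KO cells had not. The Jag1KO clones stem from an earlier transfection with the guide and Cas9 construct, which their control Jag1WT did not undergo. The contrast (siJag1 − siCtrl) − (Jag1KO − Jag1WT) was tested over 13165 genes in 12 libraries. In 13 genes, 0.0987% of those tested, the effects differed, and all 13 were also called in the direct contrast over 18 libraries. These calls rested on single libraries as well, since 13 stood without siJag1 replicate 2, 7 without Jag1KO replicate 1, 7 without siJag1 replicate 3 and at most 4 without any other library. A fit blocked on replicate called 9 positive and 14 negative differences, with all 13 genes among them. The 8 with a negative difference were IGFN1, MAGEC1, KCNN3, SPANXA1, MAGEC2, IL13RA2, SPANXB1 and PVT1, a long noncoding RNA next to MYC. The 5 with a positive one were XAGE2, MAGEA12, PLCB1, CSAG1 and MAGEB2, PLCB1 being a phospholipase that acts downstream of G proteins. In these genes the siRNA effect lay between −0.14 and 0.37 on the log2 scale and the knockout effect between −4.79 and 3.13. PLCB1, for instance, was at 2.44, 3.89 and 2.59 CPM in siJag1 and 3.04, 3.30 and 1.90 CPM in siCtrl, and at 0.130, 0.232 and 0.478 CPM in Jag1KO and 3.35, 3.01 and 4.30 CPM in Jag1WT. Neither JAG1 (difference 0.03, interval −0.65 to 0.72), HES1 (1.39, adjusted p = 1) nor COL6A3 (1.58, adjusted p = 0.0739) was called here.

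**Figure D5:**
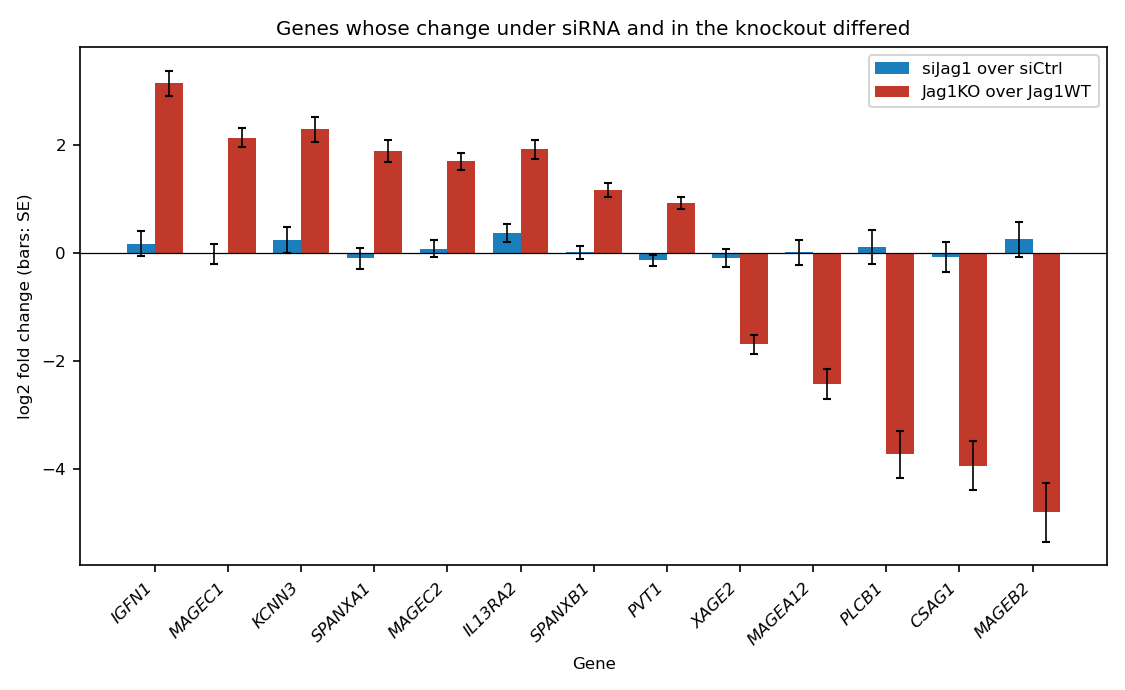
Log2 fold change of siJag1 over siCtrl (blue) and of Jag1KO over Jag1WT (red) for the 13 genes in which the effects differed, from edgeR on 12 libraries, with bars for the SE. The blue bars lie between −0.14 and 0.37, and the red bars reach from −4.79 (MAGEB2) to 3.13 (IGFN1).

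Transfection with siRNA can switch on the interferon response, so genes of that response were read as well. The siJag1 and Jag1KO cultures also differ in cloning and in time since JAG1 was lost, and RNA was taken after 7 days. The values therefore cannot tell whether transfection had switched that response on. Of 38 interferon-stimulated genes tested 0 were called on 6 libraries, 1 had an unadjusted p under 0.05, and the median log2 fold change was −0.04. The smallest p was that of IFI27, an interferon-induced mitochondrial and nuclear membrane protein, at 14.2 to 15.2 CPM in Jag1KO and 8.39 to 11.3 CPM in siJag1 (−0.64, edgeR adjusted p = 0.682). Neither the 16 genes of MHC class I presentation (median 0.08) nor the 13 genes of the RNA interference machinery (0.04) held a called gene.

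Stress, metabolic and signaling lists had 0 called genes on 6 libraries, with a median below 0 in several. The median was −0.24 for 27 ATF4 and amino acid stress genes, of which 4 had a positive change, −0.14 for 33 hypoxia and glycolysis genes, of which 7 had one, and −0.24 for 29 cytokines, chemokines and NF-kB genes, of which 8 had one. It was −0.09 for the 97 S and G2/M genes, of which 22 had a positive change. The cytokine IL11, for instance, was at 32.6, 23.2 and 18.2 CPM in Jag1KO and 8.50, 5.62 and 9.23 CPM in siJag1, near the 6.72 to 12.2 CPM of the controls (−1.69, edgeR adjusted p = 0.141). CD24, an adhesion molecule whose low level marks breast cancer stem cells, was at 18.3, 24.3 and 34.1 CPM in Jag1KO and 7.48, 10.0 and 6.92 CPM in siJag1 (−1.66, adjusted p = 0.141). The medians of the remaining lists, which are ER folding (0.04, 19 genes), cholesterol (−0.04, 30), p53 targets (−0.09, 17), EMT and stem cell markers (0.04, 16), YAP and TEAD (−0.06, 19), Wnt (0.06, 26) and axon guidance (0.02, 41), were all within 0.1 of 0. Axon guidance held 1 called gene in the fit over 18 libraries, ROBO2, at 2.15, 2.86 and 4.49 CPM in Jag1KO and 0.794, 0.757 and 0.909 CPM in siJag1.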

How the data were processed

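RNA was measured in 18 libraries of MDA-MB-231 spheroids, and 6 of them were compared. The deposited counts are whole reads per gene on hg38, unnormalized, uniquely mapped per the authors. The submitters' processing notes name featureCounts, edgeR 3.28.0, R 3.6.1 and MultiQC 1.5, and the aligner is not given in the sources used here. The deposited CPM table (unit score here, since TMM moves its column sums) holds the authors' TMM-normalized CPM, which is the CPM printed. The 18 columns of an RPKM table were not used, 3 of them matching no label.

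Counts were tested with edgeR 4.0.16 (quasi-likelihood, TMM, Benjamini-Hochberg) in R 4.3.3, on genes above 1 CPM in at least 3 libraries, and called at an adjusted p under 0.05 and a fold change above 1.5. The scripts were tested on simulated data. Alternatives were RLE factors, library size alone, no filter, filterByExpr, DESeq2 1.42.0, limma 3.58.1, a replicate block, each library left out, 18 libraries, Jag1KO + ctrl in place of Jag1KO, and, added after seeing the data, the growth state as a covariate and 2 libraries left out. Named genes are JAG1, the Notch genes, the called genes with groups that do not overlap, and up to 4 per list with the smallest p. Those named for a fit over 18 libraries, an order or a position alone were chosen after their values were seen. The comparison and lists were chosen with earlier results of these data known. S and G2/M genes are those of Seurat 5.3.0. RefSeq matched 12830 of 12896 genes. Genes without a symbol took at most 0.0442% of counts. Depths set counting error only. The p-values measure the spread between 3 cultures per group, pooled over the groups in each fit. In the fit over 18 libraries that spread comes from all 6 conditions.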

Additional observations from a re-analysis of the deposited data

Results flagged for a closer look

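In 13 genes the change under siRNA, siJag1 over siCtrl, and the change in the knockout, Jag1KO over Jag1WT, differed by edgeR's quasi-likelihood test of the interaction over 12 libraries. The difference, siRNA effect minus knockout effect on the log2 scale, was −2.96 for IGFN1 (SE 0.329, adjusted p = 0.0154), −2.15 for MAGEC1, −2.04 for KCNN3, −1.98 for SPANXA1 and −1.61 for MAGEC2. It was −1.54 for IL13RA2, −1.15 for SPANXB1 and −1.07 for PVT1. The positive differences were 1.61 for XAGE2, 2.44 for MAGEA12, 3.83 for PLCB1, 3.85 for CSAG1 and 5.04 for MAGEB2 (SE 0.659, adjusted p = 0.0264). Mixing of clones and time since JAG1 was lost cannot be told apart from the edit in this contrast.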

How the results depend on the processing

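The counts of genes depended on the test and on single libraries, and the direction of the called genes did not in any fit run. For siJag1 against Jag1KO (1 higher, 8 lower), library size alone gave 0 higher, no filter 8 and 22, DESeq2 20 and 55, the growth state covariate 32 and 85, 18 libraries in the fit 19 and 40, Jag1KO + ctrl in place of Jag1KO 7 and 23, and leaving out Jag1KO replicate 1 and siJag1 replicate 2 gave 352 and 969. Each library left out in turn gave 0 higher and 0 to 4 lower. For the difference of effects (5 and 8), DESeq2 gave 18 and 20, the covariate 20 and 21, and single libraries left out 0 to 6 and 0 to 9. RLE factors and filterByExpr left both comparisons within 1.5 times, as did limma. With 2 libraries in 1 arm fewer samples enter, and for the other settings the cause was not tested. JAG1 moved from 0.08 to 0.34 with Jag1KO + ctrl and to −0.28 without both libraries, and lay between −0.10 and 0.31 with single libraries left out, never past the threshold. FZD1 (−0.18) and TIMP2 (−0.03) changed sign with Jag1KO + ctrl. Of the 9 called genes, 4 kept their call in that setting, 7 with library size alone, 8 with limma and 8 with 18 libraries.

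Replicate numbers are shared in the labels. The deviations of same-numbered siJag1 and Jag1KO libraries correlated at 0.730, 0.512 and −0.469, and 3 of 6 libraries correlated best with their own number. These values are mixed and do not settle whether the numbers pair these libraries. The same correlations were 0.541, 0.524 and 0.262 between siJag1 and siCtrl, and 0.631, 0.669 and −0.0119 between Jag1KO and Jag1WT. They were not compared with unlike numbers, so whether the numbers pair siJag1 with siCtrl was not tested. The main fits used no pairing. With the replicate block 1 gene was higher and 11 lower, and 9 and 14 for the difference of effects. Depth limits genes near 1 CPM, where 3 reads are 0.167 to 0.290 CPM.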
